A study of Saccharomyces cerevisiae with 12 samples.

Results

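Haploid Saccharomyces cerevisiae cells are of mating type a or alpha, and the genes described here are those that set up, sense and carry out mating between them. They are 10 genes taken by name from the deposited annotation of 20619 features, and each was read from RNA-seq counts of 12 libraries. In a cells STE2 (receptor for alpha-factor), STE6 (exporter of a-factor), BAR1 (a secreted protease that cleaves alpha-factor), MFA1 and MFA2 (precursors of a-factor) and AGA2 (the binding subunit of a-agglutinin) are expressed. In alpha cells STE3 (receptor for a-factor) and SAG1 (alpha-agglutinin) are expressed. AGA1 (the subunit that anchors Aga2 to the cell wall) and FUS1 (a membrane protein needed for cell fusion) are used by both mating types and are induced by pheromone.

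The study separated cytoplasm from whole cells in an mRNA export mutant and in a wild type strain from another source. The groups were mex67-5 xpo1-1 cytoplasm, mex67-5 xpo1-1 total lysate, Wild type cytoplasm and Wild type total lysate, with 3 libraries of each, described as biologically independent. Every culture was labelled BY4741 and was moved to 37 °C for 1 h, which inactivates both mutant proteins, the mRNA export receptor Mex67 and the exportin Xpo1 (gene CRM1). Age, medium and agents besides the temperature shift do not differ in the labels. In the strain list the mutant alleles are carried on plasmids while the chromosomal genes are disrupted with marker genes, so the strains differ by more than the alleles, and cells were turned into spheroplasts before lysis.

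As background, the mating type of a cell is set by the proteins encoded at the MAT locus. The alpha2 protein, together with Mcm1, represses the a-specific genes in alpha cells, and the alpha1 protein, together with Mcm1, activates the alpha-specific genes. Pheromone binding to its receptor acts through a G protein and a MAP kinase cascade on Ste12, which binds pheromone response elements in front of genes such as FUS1. The cassettes HML and HMR hold silent copies of the mating-type genes.

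Each member's promoter held a match to the motif that belongs to its textbook class, and 1 such site per member is shown. The 500 bases before each start codon were searched on both strands in the sacCer3 reference (R64). The alpha2 site was searched as CATGTAA, found in 6.33% of 6651 promoters, and the Q box bound by alpha1 as CAATGAC, found in 5.74%. The pheromone response element was searched as TGAAACA, found in 799 of these promoters, and the Mcm1 box by its consensus, found in 3.44%. Each line below gives 30 bases on the gene's strand, 5′ to 3′, with the motif in capitals, read on the gene's strand or its complement.
STE2 alpha2 site (chrVI:82340-82369, + strand): gttttttcaacCATGTAAatttcctaattg
STE6 alpha2 site (chrXI:46489-46518, - strand): attttttttgcCATGTAAttacctaatagg
BAR1 alpha2 site (chrIX:322067-322096, + strand): ctgaaacatggCATGTAAttaccgtaaaag
MFA1 alpha2 site (chrIV:1384955-1384984, + strand): aaaaaggaaatTTACATGttaaatgaaacc
MFA2 alpha2 site (chrXIV:352176-352205, + strand): attcgggaaatTTACATGacatggatgcca
AGA2 alpha2 site (chrVII:437113-437142, - strand): attactgaaacCATGTAAtttccgaatacg
STE3 Q box (chrXI:114948-114977, - strand): caattttctctGTCATTGtgacactaatta
SAG1 Q box (chrX:445200-445229, - strand): ttgttttgcagGTCATTGatgacctaatta
FUS1 pheromone response element (chrIII:71605-71634, + strand): tggtgcgatgaTGAAACAaacatgaaacgt
AGA1 pheromone response element (chrXIV:703486-703515, + strand): acataattttcTGAAACAatattaaaacat

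All 6 a-specific members had at least 1 alpha2 site, BAR1 had 2, and none had a Q box. Both alpha-specific members had 1 Q box, and SAG1 had 1 alpha2 site as well. The alpha-specific genes MF(ALPHA)1 and MF(ALPHA)2, which are no members, had 0 Q boxes each. The Mcm1 box had 1 match each at STE2, STE6, AGA2 and SAG1, and 0 at BAR1, MFA1, MFA2, STE3, AGA1 and FUS1. The pheromone response element did not divide the classes: FUS1 had 2 and AGA1 had 1, the 6 a-specific members had 1 or 2 each, SAG1 had 1, and STE3 was the member with none in this window. The 28 matches of the 4 motifs in the 10 promoters did not overlap each other. A match is a description of letters and was not tested for binding.

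**Figure D1:**
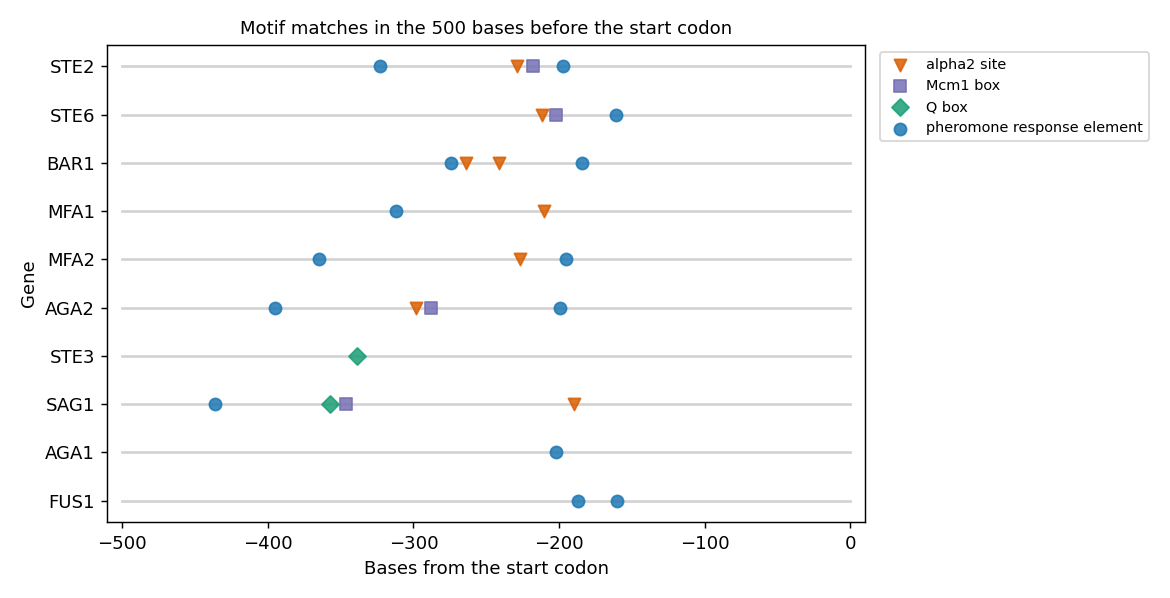
Position of motif matches before the start codon of each member; the x axis is the distance in bases from the start codon, each grey line is a window of 500 bases, and each symbol is the first base of a match on either strand. The 6 a-specific genes in the upper rows carry alpha2 sites, STE3 and SAG1 carry a Q box each, and pheromone response elements are found before AGA1 and FUS1, before all 6 a-specific genes and before SAG1. SAG1 carries an alpha2 site too, and Mcm1 boxes are found before STE2, STE6, AGA2 and SAG1.

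The counts of these libraries lie largely on the strand opposite to the RNA. Of 939 mRNAs with no gene opposite to them and with an opposite-strand feature that covers at least 50% of them and lies on no other gene, 852 (90.7%) held a higher count density on that feature than on their own in Wild type total lysates, although the labels describe a kit without strand marking. Each mRNA was therefore read from the opposite-strand feature that covers at least 50% of the gene, and RNA antisense to a gene was read from the feature named for the gene. By this rule 8 of the 10 members had an mRNA reading. MFA2 and AGA2 had none.

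STE2, STE6 and STE3 were read from features that lie wholly inside the gene. The features of the others reach beyond it. At BAR1 (chrIX:322322-324411, + strand) 26.7% of the feature lies on SNL1, at SAG1 (chrX:442580-445703, - strand) 29.6% lies on YJR003C, at AGA1 (chrXIV:703354-705937, + strand) 45.6% lies on MVD1 and a short stretch on YNR042W, and at FUS1 (chrIII:71753-73641, + strand) 51.8% lies on RNQ1. For these genes RNA of the neighbour and of the member cannot be told apart in the reading by the rule. A stricter feature, of which at least 80% lies inside the gene and none on another gene of that strand, was therefore read as well for BAR1, AGA1, FUS1 and AGA2. It was added once the values were known. It covers 33.7% of BAR1, 31.4% of AGA1, 42.9% of FUS1 and 46.9% of AGA2 (chrVII:436354-437006, - strand). At FUS1 it lies within the rule's feature. At BAR1 and AGA1 it shares no base with the rule's feature and reads the 3′ part of the gene, so there the neighbour and the part of the gene read change together and cannot be told apart. No such feature was found for SAG1, MFA1 or MFA2.

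Counts summed to between 24532091 and 37361004 per library. Levels are given as RPKM, the count per kilobase of feature scaled to the library's total count, as mean ± SD over 3 libraries. Fold changes come from edgeR's quasi-likelihood test with TMM scaling and Benjamini-Hochberg adjustment over all features tested, and a gene is said to be higher or lower only where the adjusted p was under 0.05. With library totals as the scale, the median log2 change of all features was 0.23 in the strain comparison of total lysates, 0.57 in that of cytoplasm, and 0.50 and 0.16 in the fraction comparisons of mex67-5 xpo1-1 and Wild type cells, where TMM places it near 0. Either scale is relative to the other RNA of a library, so a change shared by all RNA cannot be seen. Higher in cytoplasm thus means higher relative to other RNA. The paper reports that all RNA types were held in the mutant's nucleus. MEX67 mRNA was higher in mex67-5 xpo1-1 total lysates, by a log2 fold change of 2.03 ± 0.12 (SE, adjusted p = 3.54e-06), and CRM1 mRNA differed by 0.14 ± 0.15 (adjusted p = 0.466). These levels do not check the alleles.

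The label BY4741 was checked against the mating-type markers, and the data go against it. The strain list prints MATa for both strains. It prints MATa for both sets of a diploid as well, so the letter may not be reliable there. BY4741 is a MATa strain, yet in all 12 libraries the summed level of alpha-specific mRNAs was above that of a-specific mRNAs. Summed over STE3, SAG1, MF(ALPHA)1 and MF(ALPHA)2, the alpha-specific level per library was 442 to 554 RPKM in mex67-5 xpo1-1 cytoplasm, 595 to 789 in mex67-5 xpo1-1 total lysate, 675 to 840 in Wild type cytoplasm and 923 to 931 in Wild type total lysate. Summed over 6 a-specific genes, STE2, STE6, MFA1 and ASG7 by the rule and BAR1 and AGA2 on their stricter features, the level was 73.0 to 84.5 RPKM in mex67-5 xpo1-1 cytoplasm, 29.1 to 45.3 in mex67-5 xpo1-1 total lysate, 14.4 to 20.1 in Wild type cytoplasm and 8.99 to 9.55 in Wild type total lysate. None of these 10 markers was at 0 in any library. The gap does not hold gene by gene in mex67-5 xpo1-1 cytoplasm. There SAG1 averaged 21.4 RPKM, with libraries that overlapped those of BAR1 at 21.1 on its stricter feature. SAG1 ranked above 41.4% of mRNAs in that group. The largest part of the alpha-specific sums is MF(ALPHA)1. MF(ALPHA)1, the main alpha-factor precursor, averaged 395 ± 57.8 RPKM in mex67-5 xpo1-1 cytoplasm, 508 ± 87.2 in mex67-5 xpo1-1 total lysate, 574 ± 72.3 in Wild type cytoplasm and 640 ± 26.5 in Wild type total lysate. It ranked above 98.3% to 98.6% of 6211 mRNAs read in the same way. Only 32.2% of the feature read for MF(ALPHA)2 lies inside that gene, so its part in the sums may hold other RNA. The a1 mRNA, encoded at HMRA1 in this reference and at MAT in a cells, had 2, 3 and 0 counts in mex67-5 xpo1-1 cytoplasm and 3, 0 and 1 in the total lysates, against 0 in all 6 Wild type libraries. Of the 50-base windows in the feature read for it, 86.9% occur once in the genome, so reads could be placed there. The MATALPHA1 mRNA cannot be judged, because none of the windows in its feature is unique.

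Of the strain markers, MET17 and LEU2 did not follow the label, while others did. The strain list gives the Wild type as mutated in HIS3, LEU2, MET17 and URA3, with no mutation in LYS2 or TRP1. For the mutant it names MEX67 and CRM1, disrupted with HIS3 and TRP1, and a mutation in URA3, which is not the genotype listed for Wild type. BY4741 lacks MET17, but its mRNA had between 4670 and 8663 counts in the mex67-5 xpo1-1 libraries and between 1040 and 3488 in the Wild type libraries. HIS3, a marker gene of the mutant's disrupted alleles, had between 10909 and 20357 counts in mex67-5 xpo1-1 libraries and between 11 and 329 in Wild type libraries, where 329 came from total lysate replicate 1 and the other two total lysates had 44 and 43. LEU2 had between 3970 and 9054 counts in mex67-5 xpo1-1 libraries, against 403 to 909 in Wild type libraries. TRP1, the other marker of the disrupted alleles, had 3255 to 4973 counts in mex67-5 xpo1-1 and 355 to 715 in Wild type libraries. LYS2 had 3931 to 4995 and 6545 to 11035. URA3, on a feature inside the gene, had 351 to 724 and 38 to 75. The low HIS3 and URA3 and the present LYS2 and TRP1 of Wild type go with the label. LEU2, listed as mutated, was read in every Wild type library, which does not go with it. It averaged 16.8 RPKM in Wild type cytoplasm and 20.6 in Wild type total lysate. The feature read for it lies 100% inside the gene. The groups are therefore called by their genotype labels below, and in every comparison of the strains the mex67-5 and xpo1-1 alleles cannot be told apart from other differences between the strains.

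**Figure D2:**
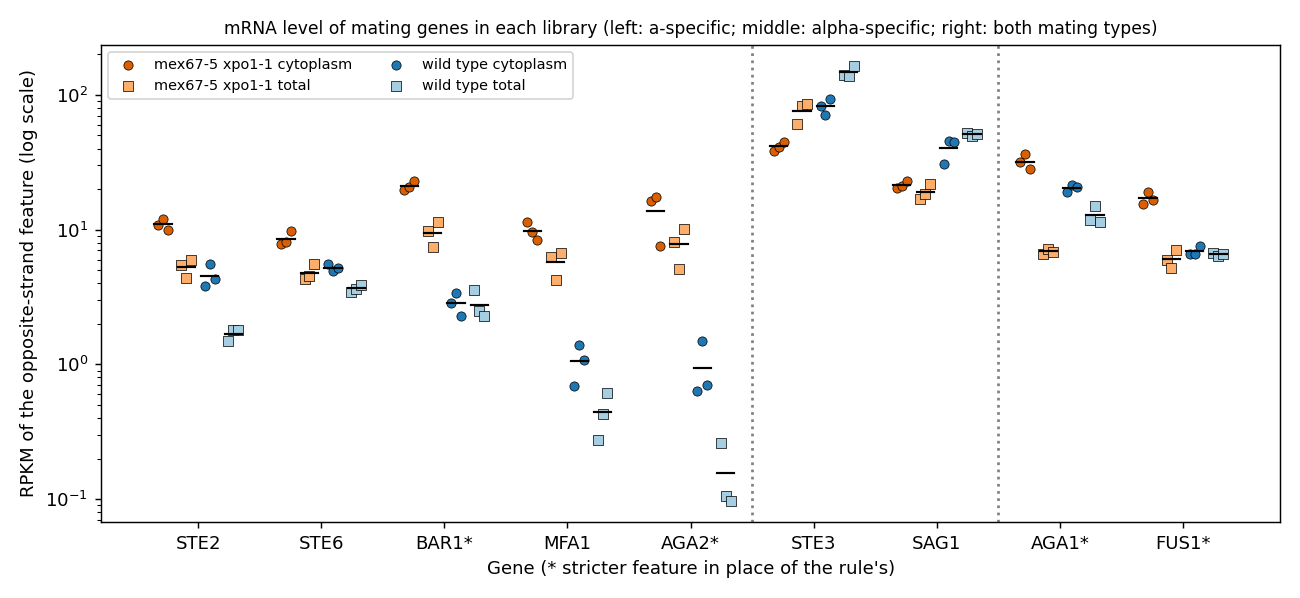
mRNA level of 9 members in each library as RPKM on a log axis; symbols are single libraries, 3 per group, and black bars are group means. An asterisk marks the stricter feature in place of the rule's. STE3 is the highest in every group, and STE2, BAR1, MFA1 and AGA2 are higher in the mex67-5 xpo1-1 libraries (orange) than in the Wild type libraries (blue) of the same fraction.

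With BAR1, AGA1, FUS1 and AGA2 on their stricter features and the others by the rule, STE3 was the most abundant mRNA in each of the 4 groups. SAG1 stood next, apart from mex67-5 xpo1-1 cytoplasm, where AGA1 on its stricter feature came before it. In Wild type total lysates the order went on with AGA1, FUS1, STE6, BAR1, STE2, MFA1 and AGA2, and STE6 and BAR1 were the neighbours whose libraries overlapped. In mex67-5 xpo1-1 total lysates BAR1, AGA2, AGA1, FUS1, MFA1, STE2 and STE6 followed SAG1, and each neighbouring pair from BAR1 downwards overlapped in the spread over libraries. The order depends on this choice. On the rule features AGA1 averaged 33.6 ± 4.43 and FUS1 33.2 ± 3.59 RPKM in mex67-5 xpo1-1 total lysates, above SAG1 at 19.1 ± 2.66, and in mex67-5 xpo1-1 cytoplasm AGA1 at 41.1 RPKM lay within 1 SD of STE3 at 41.4 ± 3.18 RPKM. On the stricter features the means below SAG1 ran between 4.79 and 9.48 RPKM in mex67-5 xpo1-1 total lysates, against 0.155 and 12.7 RPKM in Wild type total lysates.

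The first comparison asks how the mating genes differed between mex67-5 xpo1-1 and Wild type cells. In both fractions the a-specific mRNAs STE2, BAR1 and MFA1 were higher in mex67-5 xpo1-1 and the alpha-specific mRNAs STE3 and SAG1 were lower. In such bulk samples a different number of cells of a type and a different amount of RNA per cell cannot be told apart. In total lysates 6 of 8 members passed the test, 3 higher and 3 lower, where 52.6% of 12360 features passed it (26.9% higher and 25.6% lower). In cytoplasm 5 of 8 passed, 3 higher and 2 lower, against 61.2% of 13578 features (32.3% higher and 28.9% lower). MFA1 passed the filter on the mean count through its mex67-5 xpo1-1 libraries alone, as did AGA2 on its stricter feature, so their part in these counts is no support. In counts scaled to library totals, the total lysates of the strains did not overlap for 7 of 8 members, which held for 58.9% of all features, and in cytoplasm likewise for 7 of 8, against 71.0%.

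STE2, the alpha-factor receptor (chrVI:82055-84147, + strand), had 280, 241 and 330 counts in mex67-5 xpo1-1 total lysates, against 88, 87 and 95 in Wild type total lysates. All mutant libraries were above all Wild type libraries, and the log2 fold change was 1.41 ± 0.15 (SE, adjusted p = 9.59e-05). In the cytoplasm STE2 had 418, 541 and 410 counts in mex67-5 xpo1-1, against 153, 311 and 220 in Wild type, with a log2 fold change of 0.73 ± 0.16 (adjusted p = 0.0032). Here too the groups did not overlap. STE2 ranked above 18.2% of mRNAs in mex67-5 xpo1-1 total lysates and above 13.3% in Wild type total lysates, so it stayed among the low mRNAs in both strains.

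BAR1, the protease that degrades alpha-factor, was read from its rule feature at 723, 660 and 876 counts in mex67-5 xpo1-1 total lysates, against 536, 408 and 403 in Wild type total lysates. This was a log2 fold change of 0.51 ± 0.11 (adjusted p = 0.00489). On the stricter feature, free of SNL1, the total lysates had 224, 181 and 283 counts in mex67-5 xpo1-1 and 94, 54 and 54 in Wild type, a log2 fold change of 1.53 ± 0.21 (adjusted p = 0.000411). The cytoplasm showed the widest gap on the stricter feature, with 341, 413 and 425 counts in mex67-5 xpo1-1, against 51, 84 and 53 in Wild type. The log2 fold change there was 2.37 ± 0.19 (adjusted p = 1.35e-05), and 1.21 ± 0.17 on the rule feature. BAR1 was higher in mex67-5 xpo1-1 on either feature, with the larger value on the stricter one, which reads another part of the gene.

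MFA1, a precursor gene of a-factor (chrIV:1385103-1385486, + strand), had 138, 99 and 161 counts in mex67-5 xpo1-1 total lysates, against 7, 9 and 14 in Wild type total lysates. Its log2 fold change was 3.47 ± 0.30 (adjusted p = 2.95e-05). In the cytoplasm it had 188, 185 and 148 counts in mex67-5 xpo1-1 and 12, 33 and 24 in Wild type, a log2 fold change of 2.65 ± 0.26 (adjusted p = 4.15e-05). The feature read for MFA1 covers 82.6% of the gene and is itself annotated as a gene, YDR461C-A, with 46.8% of its length inside MFA1. Other RNA from that stretch would be counted with it.

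AGA2 was scarcest in Wild type. Its stricter feature held 81, 54 and 110 counts in mex67-5 xpo1-1 total lysates, against 3, 1 and 1 in Wild type total lysates. The 245 counts against 5 gave a ratio of 48.5 after scaling by library totals, with an exact 95% interval of 20.5 to 151 that covers counting error only. In the cytoplasm the feature held 122, 151 and 61 counts in mex67-5 xpo1-1, against 5, 16 and 7 in Wild type, a ratio of 14.1 (9.56 to 21.5). The fitted log2 fold changes were 5.27 ± 0.44 and 3.28 ± 0.41, of which the first depends on the small number added to counts near 0.

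MFA2, the other a-factor precursor gene (chrXIV:352385-352761, + strand), could not be read by the rule. The opposite-strand feature nearest to it covers 49.3% of the gene and has only 20.9% of its length inside, and held 300, 206 and 383 counts in mex67-5 xpo1-1 total lysates, against 56, 62 and 60 in Wild type total lysates. In the cytoplasm it held 476, 680 and 346 counts in mex67-5 xpo1-1 and 53, 142 and 89 in Wild type. These counts are mostly from outside MFA2 and give no level for its mRNA.

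STE6, the a-factor exporter (chrXI:42116-46315, - strand), was the a-specific member that did not pass the test. It had 518, 583 and 727 counts in mex67-5 xpo1-1 total lysates and 475, 416 and 482 in Wild type total lysates, with a log2 fold change of 0.16 ± 0.10 (adjusted p = 0.198). In the cytoplasm the counts were 711, 852 and 954 in mex67-5 xpo1-1, against 526, 639 and 629 in Wild type, with a log2 fold change of 0.19 ± 0.17 (adjusted p = 0.342). The groups did not overlap in either fraction. With library totals as the scale the values were 0.39 and 0.72 and both passed.

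ASG7, a further a-specific gene that is no member, had 130, 106 and 175 counts in mex67-5 xpo1-1 total lysates, against 17, 15 and 18 in Wild type total lysates (log2 fold change 2.78 ± 0.23, adjusted p = 2.1e-05). Of the 7 genes in the a-specific list 5 could be read, and 4 of these were higher in mex67-5 xpo1-1 and none lower in each fraction. Of all mRNAs read by the rule, 19.5% were higher in total lysates and 20.8% in cytoplasm. The median log2 fold change of these 5 was 1.41 in total lysates, where the median of all features was 0.0085, and 1.21 in cytoplasm, where it was 0.043. The list overlaps the members, and MFA1 and ASG7 owe their place among the features tested to the mutant libraries.

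STE3, the a-factor receptor (chrXI:112691-114903, - strand), went the other way. It had 3145, 4513 and 4706 counts in mex67-5 xpo1-1 total lysates, against 8210, 6708 and 8551 in Wild type total lysates, a log2 fold change of -1.17 ± 0.14 (adjusted p = 0.000199). In the cytoplasm it had 1477, 1830 and 1841 counts in mex67-5 xpo1-1 and 3301, 3937 and 4749 in Wild type, a log2 fold change of -1.52 ± 0.18 (adjusted p = 0.000103). Every mutant library was below every Wild type library of its fraction. By level it averaged 76.4 ± 13.1 RPKM in mex67-5 xpo1-1 total lysates and 147 ± 13.6 RPKM in Wild type total lysates.

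SAG1, the alpha-agglutinin gene, had 2434, 2844 and 3450 counts in mex67-5 xpo1-1 total lysates, against 8595, 6825 and 7610 in Wild type total lysates. The log2 fold change was -1.65 ± 0.11 (adjusted p = 9.06e-06). In the cytoplasm the counts were 2208, 2652 and 2666 in mex67-5 xpo1-1 and 3465, 7106 and 6451 in Wild type, with a log2 fold change of -1.43 ± 0.18 (adjusted p = 0.000164). Again the groups were apart in both fractions. SAG1 ranked above 47.2% of mRNAs in mex67-5 xpo1-1 total lysates, against 80.1% in Wild type total lysates, and the neighbour YJR003C shares its feature.

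Of the alpha-factor genes, MF(ALPHA)1 was lower in mex67-5 xpo1-1, with log2 fold changes of -0.54 ± 0.17 in total lysates (adjusted p = 0.0208) and -1.06 ± 0.17 in cytoplasm (adjusted p = 0.000584). MF(ALPHA)2, the minor alpha-factor gene, had -0.53 ± 0.21 in total lysates, which missed the threshold (adjusted p = 0.0555), and was lower in cytoplasm by -1.02 ± 0.29 (adjusted p = 0.0121). Only 32.2% of its feature lies inside the gene, so this reading may hold other RNA, and its call in the list carries the same limit. Over the alpha-specific list of 4 genes, 3 were lower in total lysates and 4 in cytoplasm, and none was higher. Of all mRNAs read by the rule, 33.2% were lower in total lysates and 40.1% in cytoplasm.

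AGA1, the anchor of a-agglutinin, depended on the feature read. By the rule it had 3110, 3925 and 4382 counts in mex67-5 xpo1-1 total lysates and 4603, 3030 and 3777 in Wild type total lysates. These ranges overlap, and the log2 fold change was -0.23 ± 0.13 (adjusted p = 0.153). On the stricter feature, which leaves out MVD1, it had 182, 210 and 201 counts in mex67-5 xpo1-1 total lysates, against 370, 385 and 322 in Wild type total lysates, and was lower by a log2 fold change of -1.10 ± 0.15 (adjusted p = 0.000318). In the cytoplasm the stricter feature had 649, 861 and 620 counts in mex67-5 xpo1-1 and 405, 627 and 565 in Wild type, with a log2 fold change of 0.12 ± 0.14 (adjusted p = 0.455). The rule feature gave -0.03 ± 0.15 there, and 0.51 with library totals.

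FUS1, the cell fusion gene, was lower by the rule in mex67-5 xpo1-1 total lysates, with 2921, 3669 and 3894 counts, against 4798, 3900 and 4232 in Wild type total lysates. The log2 fold change was -0.54 ± 0.11 (adjusted p = 0.0034). Over 50% of that feature lies on RNQ1, and the stricter feature had 158, 147 and 201 counts in mex67-5 xpo1-1 total lysates and 202, 160 and 180 in Wild type total lysates, with a log2 fold change of -0.34 ± 0.13 that did not pass (adjusted p = 0.056). In the cytoplasm the stricter feature was higher in mex67-5 xpo1-1, with 310, 440 and 355 counts, against 137, 189 and 199 in Wild type (log2 fold change 0.77 ± 0.17, adjusted p = 0.00282). The rule feature gave -0.31 ± 0.15 (adjusted p = 0.107) in the cytoplasm and 0.21 with library totals, so no direction is given for it.

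**Figure D3:**
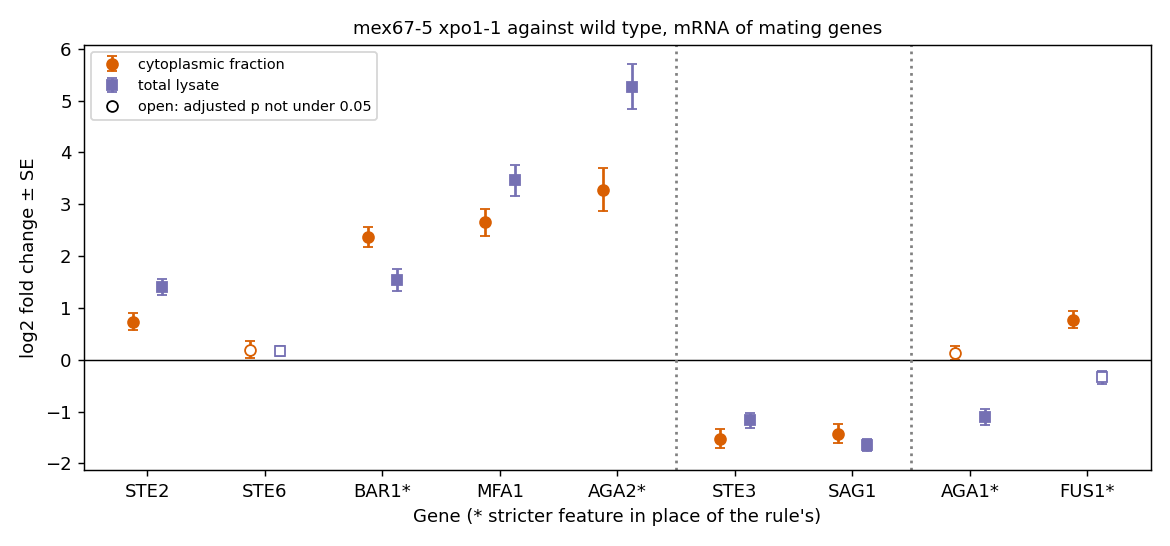
log2 fold change of mex67-5 xpo1-1 against Wild type for each member's mRNA, with the SE of the fit as bars, in the cytoplasmic fraction (circles) and in total lysate (squares), 3 libraries a group; open symbols did not pass an adjusted p of 0.05. STE2, BAR1, MFA1 and AGA2 lie above 0 and STE3 and SAG1 below 0 in both fractions.

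The rest of the mating machinery was looked at by lists. Of 83 genes in all lists, 75 had an opposite-strand feature by the rule, and for 39 of these the feature also lies on another gene of its strand, so these values are less sharp than those of STE2, STE6 and STE3. Of all mRNAs read in this way, 19.5% were higher and 33.2% lower in mex67-5 xpo1-1 total lysates, and 20.8% were higher and 40.1% lower in cytoplasm, and the counts per list stand against these shares. The pheromone signalling list, 17 of 20 genes tested, held 2 higher and 7 lower in mex67-5 xpo1-1 total lysates and 1 higher and 6 lower in cytoplasm. SST2, the regulator that switches off the G protein, was lower in total lysates by a log2 fold change of -0.95 ± 0.11 (adjusted p = 0.000141), and so was FAR1, which arrests the cell cycle on pheromone, by -1.08 ± 0.13 (adjusted p = 0.000198). GPA1 and STE4, the alpha and beta subunits of the G protein, were lower there by -0.44 ± 0.10 and -0.40 ± 0.10, where 44.9% of the GPA1 feature lies on NEM1. STE12, the transcription factor of the pathway, was lower by -0.44 ± 0.11 (adjusted p = 0.00752), while DIG2, an inhibitor of Ste12, was higher by 0.61 ± 0.15 (adjusted p = 0.00689). Of the STE12 feature 51.4% lies inside the gene. The list's median log2 fold change was -0.23 in total lysates and -0.13 in cytoplasm, where the mRNAs read in this way had medians of -0.13 and -0.24.

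The haploid-specific list of 9 genes held 1 higher and 3 lower in mex67-5 xpo1-1 total lysates, and 0 higher and 2 lower in cytoplasm. In this list RME1, a repressor of meiosis, was higher in total lysates by 0.56 ± 0.20 (adjusted p = 0.038), on a feature of which 27.4% lies on YGR045C. Of the pheromone-induced list, with 18 genes, 3 were higher and 6 lower among 15 tested in total lysates, and 5 higher and 2 lower among 16 in cytoplasm. FIG2, a cell wall adhesin whose feature lies to 30.5% on ABP1, was lower in mex67-5 xpo1-1 total lysates by -0.80 ± 0.15 (adjusted p = 0.00199) and had 0.30 ± 0.14 in cytoplasm (adjusted p = 0.0846). PRM1, a membrane protein of cell fusion, had -0.24 ± 0.13 in total lysates (adjusted p = 0.146) and was higher in cytoplasm by 1.26 ± 0.17 (adjusted p = 0.000221).

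Of the 11 genes in the list of pheromone maturation none was higher, 4 were lower in total lysates and 7 in cytoplasm. KEX1, a carboxypeptidase that trims alpha-factor, was lower in the cytoplasm by -1.65 ± 0.17 (adjusted p = 4.89e-05) and in total lysates by -0.58 ± 0.12. STE24, a protease that trims the a-factor precursor, was lower by -1.47 ± 0.18 in the cytoplasm (adjusted p = 0.000134) and by -0.49 ± 0.12 in total lysates. Among 8 genes of silencing and mating-type regulation, 2 were higher and 2 lower in total lysates, and 2 and 3 in cytoplasm. The reading of SIR1, counted as higher in both fractions, is no level of SIR1, since 73.4% of its feature lies on FLO10. SIR3, a structural protein of silent chromatin with 51.6% of its feature inside the gene, had -0.39 ± 0.16 in total lysates (adjusted p = 0.0708) and was lower in cytoplasm by -0.75 ± 0.19 (adjusted p = 0.0067).

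The second comparison asks how the mRNAs were divided between the cytoplasmic fraction and the total lysate. In mex67-5 xpo1-1 cells 4 of 8 members passed the test, 2 higher and 2 lower in cytoplasm, where 58.7% of 13763 features passed it (30% higher and 28.7% lower). In Wild type cells 5 of 7 passed, 2 higher and 3 lower, against 39.8% of 11976 features (22.3% higher and 17.6% lower). MFA1 and AGA2 were too low in Wild type to be tested there. The fractions of mex67-5 xpo1-1 did not overlap for 6 of 8 members, which held for 64.8% of all features, and those of Wild type did not overlap for 5 of 7, against 52.2%.

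STE3 was lower in the cytoplasmic fraction of both strains. The log2 fold change of cytoplasm against total was -1.38 ± 0.15 in mex67-5 xpo1-1 (adjusted p = 0.00021) and -0.97 ± 0.15 in Wild type (adjusted p = 0.00312). Its levels were 41.4 ± 3.18 RPKM in cytoplasm and 76.4 ± 13.1 in total lysate for mex67-5 xpo1-1, and 82.2 ± 10.7 in cytoplasm and 147 ± 13.6 in total lysate for Wild type. The libraries of the fractions did not overlap in either strain.

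SAG1 had -0.33 ± 0.13 in mex67-5 xpo1-1, which missed the threshold (adjusted p = 0.0501) and is 0.17 with library totals, and was lower in Wild type cytoplasm by -0.48 ± 0.16 (adjusted p = 0.0411). That Wild type call was lost with library totals and without any of 5 libraries, both cytoplasm replicates 2 and 3 and all total lysates. The alpha-factor gene MF(ALPHA)1 was lower in mex67-5 xpo1-1 cytoplasm by -0.87 ± 0.19 (adjusted p = 0.00433) and had -0.30 ± 0.12 in Wild type (adjusted p = 0.0869). Of the alpha-specific list 3 of 4 were lower in mex67-5 xpo1-1 cytoplasm, 2 of 4 in Wild type cytoplasm, and none was higher. The mex67-5 xpo1-1 calls include MF(ALPHA)2, whose feature lies mostly outside the gene. Of all mRNAs read by the rule, 39.8% were lower in mex67-5 xpo1-1 cytoplasm and 21.5% in Wild type cytoplasm.

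STE2 was higher in the cytoplasmic fraction of both strains, with log2 fold changes of 0.56 ± 0.13 in mex67-5 xpo1-1 (adjusted p = 0.00518) and 1.29 ± 0.17 in Wild type (adjusted p = 0.00225). By level it averaged 10.9 ± 1.09 RPKM in cytoplasm and 5.25 ± 0.768 in total lysate for mex67-5 xpo1-1, and 4.55 ± 0.935 and 1.69 ± 0.172 for Wild type. STE6 had 0.35 ± 0.14 in mex67-5 xpo1-1 (adjusted p = 0.0609, with 0.84 and a call under library totals) and was higher in Wild type cytoplasm by 0.38 ± 0.12 (adjusted p = 0.0326). The Wild type call of STE6 was lost without either of cytoplasm replicates 1 and 3 and without any of the total lysates. MFA1 had 0.27 ± 0.19 and AGA2 0.32 ± 0.31 in mex67-5 xpo1-1, and neither passed.

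BAR1 was higher in the cytoplasm of mex67-5 xpo1-1, by 0.47 ± 0.13 on the rule feature (adjusted p = 0.0127) and 0.66 ± 0.16 on the stricter feature (adjusted p = 0.00696). In Wild type the rule feature gave -0.17 ± 0.15 (adjusted p = 0.406) and the stricter feature -0.11 ± 0.24 (adjusted p = 0.734), and the libraries of the fractions overlapped. BAR1 averaged 21.1 ± 1.68 RPKM in cytoplasm and 9.48 ± 1.98 in total lysate for mex67-5 xpo1-1 on the stricter feature, and 2.84 ± 0.541 and 2.78 ± 0.691 for Wild type.

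At AGA1 and FUS1 the fraction change turned with the feature. For AGA1 in mex67-5 xpo1-1 the rule feature gave -0.21 ± 0.13 (adjusted p = 0.185), while the stricter feature was higher in cytoplasm by 1.71 ± 0.13 (adjusted p = 6.68e-05), with 649, 861 and 620 counts in cytoplasm against 182, 210 and 201 in total lysate. In Wild type AGA1 was higher in cytoplasm on the stricter feature by 0.53 ± 0.14 (adjusted p = 0.0174), against -0.36 ± 0.13 on the rule feature (adjusted p = 0.0638, and 0.00992 with a replicate block). FUS1 in mex67-5 xpo1-1 was lower in cytoplasm by the rule, -0.42 ± 0.15 (adjusted p = 0.0347, and 0.072 on the log2 scale with library totals), and higher on the stricter feature by 1.00 ± 0.14 (adjusted p = 0.000565). In Wild type FUS1 was lower by the rule by -0.60 ± 0.10 (adjusted p = 0.00404), and the stricter feature had -0.06 ± 0.13 (adjusted p = 0.737). The FUS1 call by the rule in mex67-5 xpo1-1 was lost without either of cytoplasm replicates 1 and 2 and without either of total lysate replicates 2 and 3. It was also lost with the replicate block.

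**Figure D4:**
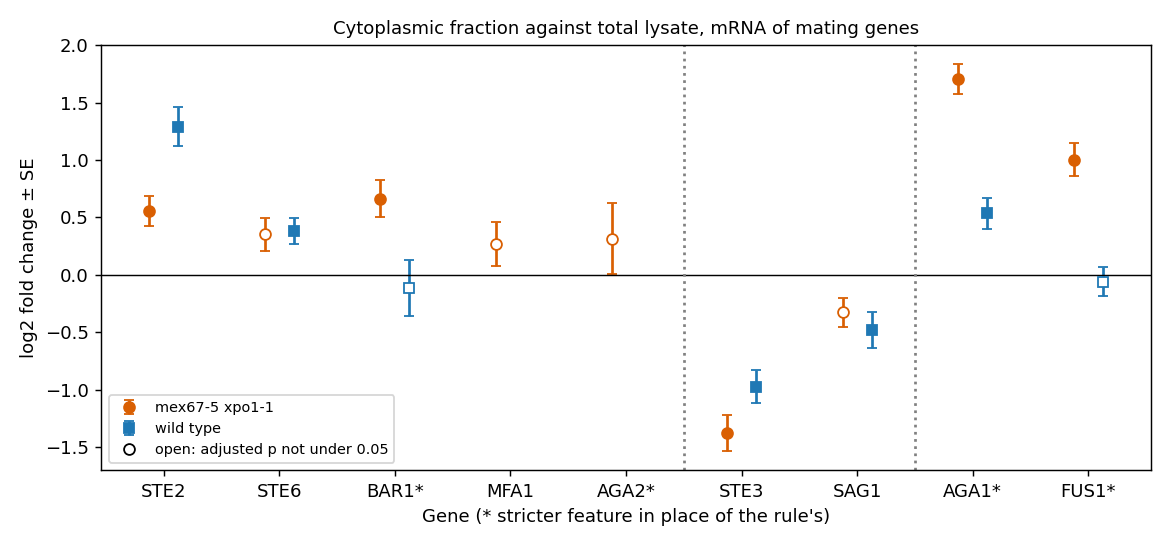
log2 fold change of the cytoplasmic fraction against total lysate for each member's mRNA, with the SE of the fit, in mex67-5 xpo1-1 (circles) and Wild type (squares), 3 libraries a group; open symbols did not pass an adjusted p of 0.05, and MFA1 and AGA2 were not tested in Wild type. STE3 lies below 0 and STE2 above 0 in both strains, and AGA1 and FUS1 on their stricter features have larger values in the mutant.

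Whether the ratio of cytoplasm to total differed in size between mex67-5 xpo1-1 and Wild type was tested with an interaction term. Of 8 members 1 passed, higher in the mutant, where 10.2% of 13145 features passed (4.57% higher and 5.68% lower). The ratio of BAR1 was higher in mex67-5 xpo1-1 by 0.70 ± 0.21 on the log2 scale (adjusted p = 0.0462), and by 0.84 ± 0.29 on the stricter feature, which did not pass (adjusted p = 0.0795). The BAR1 call was also lost without any 1 of 10 libraries, all but mex67-5 xpo1-1 cytoplasm replicate 1 and Wild type cytoplasm replicate 2, with values between 0.57 and 0.78. A replicate block removed the BAR1 call too. STE2 had -0.67 ± 0.21 (adjusted p = 0.0553), which just missed the threshold and is close in size and error to the BAR1 value, with the opposite sign. STE2 and BAR1 thus lie on either side of the threshold without differing in strength. STE3 had -0.35 ± 0.23 (adjusted p = 0.351). The interval of either receptor mRNA is wide.

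On the stricter features both pheromone-induced members passed. FUS1 had an interaction of 1.12 ± 0.19 (adjusted p = 0.0049) and AGA1 of 1.23 ± 0.19 (adjusted p = 0.00271), where the rule features gave 0.24 ± 0.18 and 0.21 ± 0.19. In the pheromone-induced list 3 of 15 genes had a higher ratio of cytoplasm to total in mex67-5 xpo1-1 and 2 a lower one, each against Wild type, where 4.2% of all mRNAs had a higher and 7.82% a lower ratio. PRM1 had 1.51 ± 0.20 (adjusted p = 0.00213) and FIG2 1.10 ± 0.19 (adjusted p = 0.00477), while PRM5 had -0.96 ± 0.23 (adjusted p = 0.0213). The third higher and the second lower call were at FUS2 and FIG1, whose features lie only to 25.5% and 26.6% inside the gene and give no level of it. None of the 17 signalling genes and none of the 9 haploid-specific genes passed, and 2 of 11 maturation genes did, both lower, STE24 with -0.98 ± 0.22 and KEX1 with -1.07 ± 0.20.

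Within each strain the lists are set against all mRNAs read in this way, of which 20% were higher and 39.8% lower in mex67-5 xpo1-1 cytoplasm, and 21.1% higher and 21.5% lower in Wild type cytoplasm. In mex67-5 xpo1-1 cytoplasm against total, the pheromone-induced list held 5 higher and 5 lower of 15, with PRM2, a pheromone-regulated membrane protein, higher by 1.93 ± 0.26 and AFR1, a gene of mating projection shape, lower by -0.74 ± 0.12. Wild type held 1 higher and 5 lower of 15. The maturation list held 1 higher and 1 lower of 11 in mex67-5 xpo1-1 and 7 higher and 0 lower in Wild type, where STE24 was higher in cytoplasm by 1.31 ± 0.15. The signalling list held 3 higher and 3 lower of 17 in mex67-5 xpo1-1, and 3 higher and 2 lower in Wild type. STE4 was lower in cytoplasm in both strains, by -0.63 ± 0.11 in mex67-5 xpo1-1 and -0.37 ± 0.11 in Wild type, and STE5, the scaffold of the MAP kinases, was higher, by 0.31 ± 0.10 and 0.65 ± 0.11.

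RNA antisense to the members was read from the feature named for each gene. At STE3 it was close to nothing, with 38, 45 and 27 counts in mex67-5 xpo1-1 cytoplasm and 22, 19 and 29 in total lysate, against 16, 21 and 21 in Wild type cytoplasm and 10, 14 and 15 in total lysate. The ratio of mRNA to antisense RPKM at STE3 was 66.1 and 249 in mex67-5 xpo1-1 cytoplasm and total lysate, and 293 and 837 in Wild type cytoplasm and total lysate. AGA1 had little antisense signal too, between 12 and 70 counts in any library.

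SAG1 and FUS1 had antisense signal that was higher in mex67-5 xpo1-1. At SAG1 the total lysates had 426, 380 and 552 counts in mex67-5 xpo1-1, against 175, 134 and 171 in Wild type, a log2 fold change of 1.26 ± 0.13 (adjusted p = 6.85e-05), and the cytoplasm gave 1.58 ± 0.14. No annotated gene lies opposite to SAG1. At FUS1 the total lysates had 1088, 822 and 1020 counts in mex67-5 xpo1-1, against 305, 189 and 231 in Wild type, a log2 fold change of 1.79 ± 0.16 (adjusted p = 3.64e-05), and the cytoplasm gave 1.99 ± 0.19. HBN1 lies opposite to 25.3% of FUS1, and its RNA is counted there as well. The mRNA and antisense signals of SAG1 thus moved in opposite directions between the strains.

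STE6 was the member with more antisense than mRNA signal in every group, at ratios of mRNA to antisense RPKM of 0.497 and 0.788 in mex67-5 xpo1-1 cytoplasm and total lysate, and 0.524 and 0.448 in Wild type cytoplasm and total lysate. Its antisense had 863, 694 and 1073 counts in mex67-5 xpo1-1 total lysates, against 1150, 1122 and 1195 in Wild type total lysates, and was lower by -0.65 ± 0.13 (adjusted p = 0.00281). In mex67-5 xpo1-1 it was higher in cytoplasm than in total lysate by 1.00 ± 0.14 (adjusted p = 0.000562), while Wild type had 0.15 ± 0.18 (adjusted p = 0.536). The cytoplasm counts were 1899, 2307 and 1550 in mex67-5 xpo1-1, against 821, 1923 and 1274 in Wild type, where replicate 2 was the highest. The interaction for STE6 antisense was 0.92 ± 0.24 (adjusted p = 0.0263). UBA1 lies opposite to 10.8% of the gene.

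Antisense at STE2 did not pass in the total lysates of the strains (-0.20 ± 0.15, adjusted p = 0.298), and in Wild type it was higher in cytoplasm by 0.80 ± 0.16 (adjusted p = 0.00707). The ratio of mRNA to antisense at STE2 was 2.68 and 2.37 in mex67-5 xpo1-1 cytoplasm and total lysate, against 1.10 and 0.780 in Wild type cytoplasm and total lysate. BST1 lies opposite to 15.5% of STE2, and its RNA cannot be told apart from antisense RNA there. The feature named MFA2 had 84, 54 and 110 counts in mex67-5 xpo1-1 total lysates, against 7, 14 and 19 in Wild type total lysates, with a fitted log2 fold change of 2.36 ± 0.37 (adjusted p = 0.000769). It passed the filter on the mean count through its mex67-5 xpo1-1 libraries alone, so this p is no support. YNL144C lies opposite to 37.7% of MFA2. Antisense at BAR1 had -0.10 ± 0.18 in total lysates (adjusted p = 0.653) and 0.43 ± 0.24 in cytoplasm (adjusted p = 0.14).

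**Figure D5:**
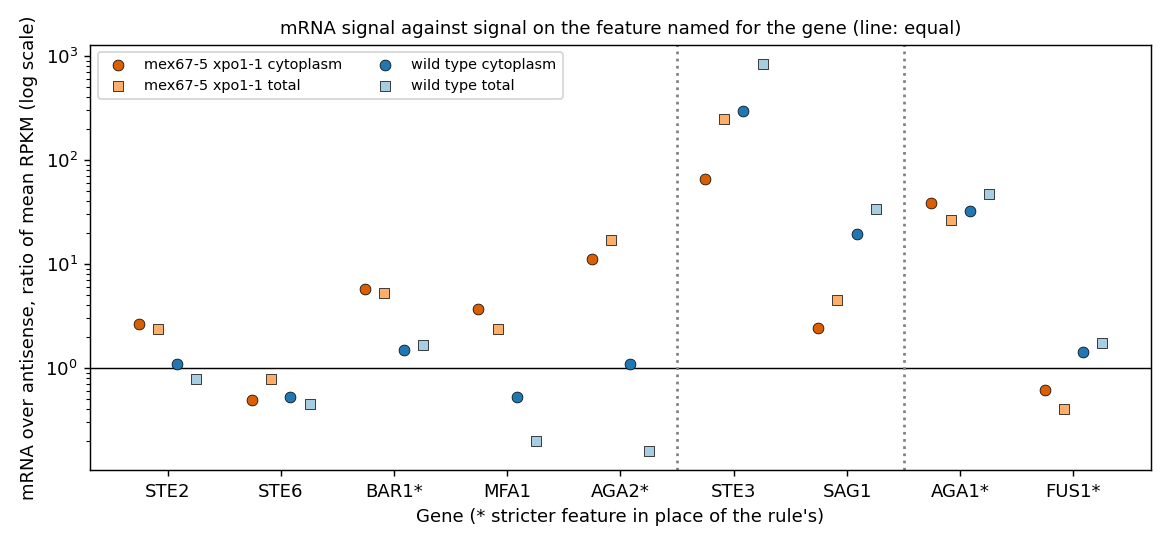
Ratio of the mean RPKM on the mRNA reading to that on the feature named for the gene, on a log axis, per gene and group; the line marks equal levels, an asterisk marks the stricter feature, and the ratios were not tested. Points of the a-specific genes other than STE6 are higher in the mex67-5 xpo1-1 groups (orange) than in the Wild type groups (blue), and those of STE3, SAG1 and FUS1 are lower.

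Across the 12 libraries, the mRNAs most like STE2 in log2 CPM were SUL1 (Pearson's r = 0.985), YLR444C (r = 0.978) and YHR022C (r = 0.962), among 5731 mRNAs compared. Those most like STE3 were VTC2, ECT1 and NAT1, each at r = 0.990. The libraries share the 4 groups and their scaling, so these values mostly restate differences between groups.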

How the data were processed

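RNA-seq was carried out on 12 libraries. Per the labels and methods, the authors aligned single reads to sacCer3 with STAR (version 2.5.2a) and deposited raw counts per feature made by featureCounts (version 1.5.0-p1), without normalization. The strand setting of the counting is not given in the sources used here. The start codons of all 6656 coding genes compared read ATG in the R64 reference at the deposited positions.

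The quasi-likelihood test of edgeR (version 4.0.16, in R version 4.3.3) was applied to the deposited counts with TMM and Benjamini-Hochberg adjustment, over features whose mean count in the fit exceeded 40. The study's methods name DESeq2, which (version 1.42.0) was an alternative. The others were RLE size factors, library totals, a minimum of 10 or none, 1 fit over all libraries, leaving out each library, a replicate block, the feature named for the gene and, added after the data were seen, the stricter feature. RPKM and ratios were computed from the counts with Python (version 3.11.15). The script was tested on simulated data with features changed by 1.5 on the log2 scale. It recovered between 85.1% (change of the ratio) and 99.5% (strains, total lysate) of them. Of its calls 4.74% (strains, cytoplasm) to 8.37% (fractions of mex67-5 xpo1-1) were false, so calls near the threshold are less sure. Counting error at totals of 24532091 to 37361004 per library limits genes under about 40 counts.

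An opposite-strand feature had to cover at least 50% of the gene, and the one covering most was taken. Named genes are the members, the genes of the lists, the 3 mRNAs most like STE2 and STE3, strain markers, MEX67 and CRM1. Members and lists were chosen with earlier results of these data known. In Wild type, same-numbered total and cytoplasm libraries deviated together (correlations 0.243, 0.393 and 0.114), so a fit with the replicate number as a block is given there beside a call that it changes; the reported tests have no block. In the other comparisons they share a number only.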

Additional observations from a re-analysis of the deposited data

Results flagged for a closer look

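The cytoplasm to total ratio differed between mex67-5 xpo1-1 and Wild type, by the test of the difference itself, for 2 readings of the members. BAR1 mRNA by the rule had a difference of 0.70 on the log2 scale (adjusted p = 0.0462), and antisense RNA at STE6 had 0.92 (adjusted p = 0.0263). For BAR1 the adjusted p lies just under the threshold and the call was lost in most alternatives, while SNL1 lies on the same feature. For STE6 antisense the call was not recomputed without single libraries or with a block. Its Wild type cytoplasm libraries were spread widely, at 821, 1923 and 1274 counts.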

How the results depend on the processing

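The member counts of the strain comparisons stayed at 6 in total lysates and between 5 and 6 in cytoplasm when any library was left out. They ranged between 3 and 5 for the fractions of mex67-5 xpo1-1, between 3 and 5 for those of Wild type and between 0 and 1 for the change of the ratio. Read from the feature named for each gene, which holds antisense RNA, 3 members passed in the cytoplasm of the strains, 2 in the fractions of mex67-5 xpo1-1 and 1 in those of Wild type. The change of the ratio had 2 calls with DESeq2 and 2 on the stricter features, and 0 with a minimum mean count of 10, 0 without a filter and 0 with the replicate block. Apart from the named features, 501 of 577 recomputed values kept direction and call, 36 lost the call, 23 gained it and 17 turned.

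The replicate block gave 6 and 5 calls between the strains, 3 in the fractions of mex67-5 xpo1-1, where FUS1 lost its call, 6 in those of Wild type, where AGA1 gained one, and 0 for the change of the ratio, where BAR1 lost its call (adjusted p = 0.0572). It changed no other call of a member. Same-numbered libraries of mex67-5 xpo1-1 correlated at 0.384, -0.356 and -0.190, those of the strains at 0.031 to 0.055 in total lysate and 0.093 to 0.275 in cytoplasm.

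Directions turned as follows, on the log2 scale. With the named feature, total lysates of the strains gave STE2 -0.20, STE6 -0.65, BAR1 -0.10, SAG1 1.26 and FUS1 1.79, cytoplasm STE2 -0.57, SAG1 1.58 and FUS1 1.99, the mex67-5 xpo1-1 fractions SAG1 0.58 and FUS1 0.36, and the Wild type fractions BAR1 0.072, SAG1 0.32 and FUS1 0.22. With library totals, cytoplasm of the strains gave AGA1 0.51 and FUS1 0.21, and the mex67-5 xpo1-1 fractions AGA1 0.29, SAG1 0.17 and FUS1 0.072. On the stricter feature, cytoplasm of the strains gave AGA1 0.12 and FUS1 0.77, the mex67-5 xpo1-1 fractions AGA1 1.71 and FUS1 1.00, and the Wild type fractions AGA1 0.53. Without 1 library, AGA1 in cytoplasm of the strains lay between -0.13 and 0.052 and the change of the STE6 ratio between -0.073 and 0.18, which was -0.017 without a filter. The stricter feature leaves out the neighbouring genes and, at BAR1 and AGA1, also reads another part of the gene, and the cause of these and the other changes was not tested. AGA2 and MFA1 in Wild type are limited by their few counts.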
